A study of Mus musculus with 28 samples.

Results

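The genes described here encode the enzymes that cut and cross-link extracellular matrix and the proteins that hold them back. They were taken from the deposited expression table by symbol: matrix metalloproteinases (Mmp), tissue inhibitors of metalloproteinases (Timp), the ADAM, ADAMTS and ADAMTS-like (Adamtsl) genes, and the lysyl oxidases (Lox, Loxl). The pattern matched 42 of 13128 genes: 10 Mmp, 3 Timp, 10 Adam, 10 Adamts, 4 Adamtsl and 5 lysyl oxidase genes. RNA came from DC2, an immortalized line of mouse epithelial cells from the distal caput of the epididymis, the duct in which sperm mature. All cultures grew on collagen in serum-containing medium and were detached with trypsin at collection. Once confluent, the cells were given either corticosterone (500 ng/ml, dissolved in ethanol), the chief stress glucocorticoid in mice, or the ethanol vehicle by itself at 0.1%. The medium was replaced at day 3, the end of treatment, and at day 6. Libraries were made at days 3, 6 and 9 in both arms, so that days 6 and 9 lay 3 and 6 days into recovery. The day 0 libraries, which the labels also call vehicle, were taken before either addition. Each of the 7 groups held 4 libraries. The labels do not say whether these were separate cultures, so p-values measure the spread between these libraries, which may be technical.

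Matrix metalloproteinases are zinc proteases made as inactive precursors, either secreted or anchored in the membrane, and the TIMP proteins block their active sites. ADAM proteins sit in the membrane, where the catalytically active ones release growth factors, cytokines and adhesion molecules from the cell surface. ADAMTS enzymes are secreted and cut proteoglycans, procollagens or cartilage oligomeric matrix protein (COMP), while the ADAMTS-like proteins share their outer domains but have no protease domain. Lysyl oxidases oxidize lysines of collagen and elastin so that the fibres become cross-linked. In the epididymis such proteins act on the basement membrane and stroma around the duct, and several ADAM proteins of sperm are processed during transit.

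Among the genes for proteoglycan-cutting enzymes, Adamts1 was higher and Adamts9 lower with the hormone, as detailed below, and the bases upstream of their start sites are shown so that the shared and differing letters can be seen beside those values. Each window holds the 250 bases before the RefSeq start site (GRCm38.p6), 5′ to 3′ on the minus strand, at chr16:85803114-85803363 for Adamts1 and chr6:92943535-92943784 for Adamts9. Capitals mark the core letters bound by hypoxia-inducible factors (HIF).
Adamts1: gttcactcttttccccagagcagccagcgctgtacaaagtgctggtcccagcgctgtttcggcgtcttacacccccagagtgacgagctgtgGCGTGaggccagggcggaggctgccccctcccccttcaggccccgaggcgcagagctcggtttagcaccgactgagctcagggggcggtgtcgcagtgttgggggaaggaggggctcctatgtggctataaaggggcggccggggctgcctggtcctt
Adamts9: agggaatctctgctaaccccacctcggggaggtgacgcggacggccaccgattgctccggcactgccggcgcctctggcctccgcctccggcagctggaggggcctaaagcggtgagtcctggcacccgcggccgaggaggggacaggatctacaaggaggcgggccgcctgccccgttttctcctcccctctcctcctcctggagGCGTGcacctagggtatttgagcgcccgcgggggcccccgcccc
The match began at position -158 relative to the start site in Adamts1 and at -44 in Adamts9. Promoters of 26 of the 42 genes, in 28 windows of 300 bases, were in the RefSeq table and were searched on both strands. ACGTG or GCGTG, the HIF core, occurred for 16 of the 26 genes and in 43.8% of all 32851 windows. The palindrome bound by the glucocorticoid receptor, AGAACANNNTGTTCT, occurred for 0 of the 26 and in 0.00913% of all windows. Its hexamer AGAACA, which the palindrome contains, was present for 4, Adam1a, Mmp11, Mmp12 and Mmp23, and in 19.0% of all windows. TGAGTCA or TGACTCA, the AP-1 letters, occurred only for Mmp12 among the 26, and in 5.20% of all windows. Counts for the 26 are of genes with a match in any of their windows. The percentages are of single windows over the whole RefSeq table, whether or not the gene was measured here, so units and sets differ. These matches describe letters in a short window and say nothing about binding.

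Values are log2 CPM, a gene's counts scaled to a fixed library total (CPM) on a log2 scale, as normalized by the authors. Raw counts were not used, so the depth per library is unknown here. Corticosterone day 3 replicate 4 stood apart, with a mean root mean square difference of 0.569 to its own group against 0.445 to 0.462 for the other libraries of that group. Leaving it out gave 10 genes higher and 15 lower at day 3, the same counts as with it but not the same genes, since Adamtsl3 lost its call (-0.92, adjusted p = 0.111) and Mmp2 gained one (-0.72, adjusted p = 0.0215). Epithelial identity was mixed. Of 10 epithelial markers 8 were measured, with Tjp1 at 6.83 and Krt18 at 5.29 log2 CPM at day 0 but Epcam at -1.42, and their sum lay between 157 and 199 CPM in every library. With corticosterone 1 of the 8 was higher and 2 lower at day 3, 3 and 3 at day 6 and 4 and 2 at day 9. Of 13 epididymal markers 4 were measured, among them Pax8 at 7.13, Pax2 at 6.07 and Spink8 at -3.59 log2 CPM at day 0. Their sum was 224 to 285 CPM in vehicle libraries from day 0 on and 240 to 353 CPM with corticosterone, where 2 were higher and 1 lower at day 3, and 3 and then 4 higher at days 6 and 9 with 0 lower. The largest of these rises was that of Spink8, from -1.48 to 3.58 log2 CPM at day 3.

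Genes known as markers of other cell types moved with the treatment as well, in RNA from the DC2 line. Fibroblast markers, 6 of 9 measured, summed to 111 to 175 CPM, and 4 were lower and 2 higher with corticosterone at days 3 and 6, and 2 lower and 2 higher at day 9. Of 9 macrophage markers only Csf1r and Cd68 were measured, and their sum was 28.4 to 29.6 CPM with vehicle and 7.88 to 11.3 CPM with corticosterone at day 3, with both lower at days 3 and 6 and Cd68 lower at day 9. At day 9 that sum was 87.6 to 108 CPM with vehicle and 45.7 to 50.8 CPM with corticosterone. Endothelial markers, Pecam1 and Kdr of 5, summed to 1.43 to 2.60 CPM with vehicle and 7.15 to 9.71 CPM with corticosterone at day 3, and Kdr was higher on all 3 days. Smooth muscle markers, Acta2 and Tagln of 5, summed to 1.04 to 4.24 CPM, with 1 of the pair called higher on each day. At day 3 Tagln had means of 0.86 log2 CPM with corticosterone and -0.20 with vehicle, and Acta2 -0.48 and -0.87. At day 9 Tagln had -0.13 and 0.46, and Acta2 0.64 and -0.96. Of 7 sperm and testis markers 0 were measured. The part of these shifts in the results below was not tested. Whether any cells other than DC2 were present was not tested either. In bulk RNA a change in cell numbers and a change in RNA per cell cannot be told apart.

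Corticosterone changed most of these genes during treatment and shortly after it. Called genes, with a Benjamini-Hochberg adjusted p under 0.05 from limma over all 13128 genes, numbered 25 of 42 at day 3, 10 higher and 15 lower than vehicle. Of all genes tested, 49% were called in that comparison (23.3% higher, 25.6% lower), against 59.5% of these 42. At day 6 there were 11 higher and 16 lower, 64.3% against 47.2% of all genes (22.9% higher, 24.3% lower). At day 9 there were 11 higher and 7 lower, 42.9% against 28.5% (14.1% higher, 14.4% lower). The median size of the log2 difference was 0.42 at day 3, 0.47 at day 6 and 0.30 at day 9, beside 0.23, 0.22 and 0.15 over all genes. The groups of 4 libraries did not overlap for 19, 28 and 20 of the 42 genes on the successive days, beside 38.5%, 48.3% and 32.9% of all genes. By family, 8 of 10 Adamts, 6 of 10 Mmp, 4 of 10 Adam, 3 of 5 lysyl oxidase, 2 of 3 Timp and 2 of 4 Adamtsl genes were called at day 3. At day 6 these counts were 9, 7, 4, 3, 3 and 1, and at day 9 they were 5, 4, 3, 4, 2 and 0.

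In all, 34 of the 42 genes were called on at least 1 day, as were 67.8% of all genes. Higher on all 3 days were Mmp15, Mmp24, Adamts1 and Adamts2, 4 of 42 beside 5.41% of all genes. Lower on all 3 days were Mmp19, Timp1, Adamts9, Loxl2 and Loxl4, 5 of 42 beside 5.38%. At days 3 and 6 the same direction was called for 20 of the 42 genes, beside 33.7% of all genes, and opposite directions for 0. Called at days 3 and 6 but not at day 9 were 10 of the 42, beside 20.5% of all genes. Adamts5 and Loxl1 were lower at day 3 and higher at day 9. The 8 genes called on no day were Mmp12, Mmp23, Adam8, Adam12, Adam15, Adamtsl4, Adamtsl5 and Loxl3. The heatmap of log2 differences shows these patterns family by family.

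**Figure D1:**
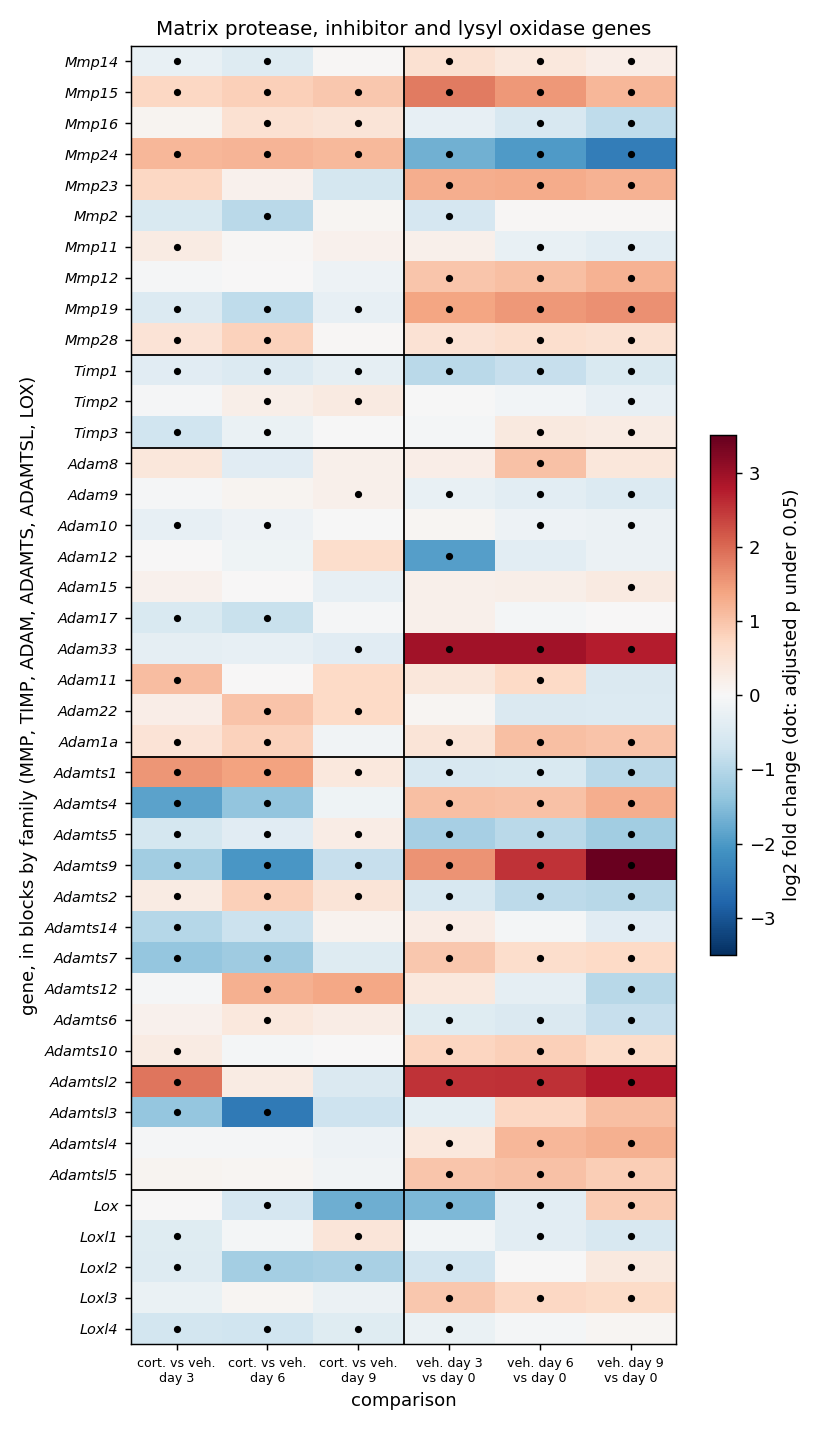
Log2 fold changes of the 42 genes (rows, in blocks by family) in 6 comparisons (columns): corticosterone against vehicle at days 3, 6 and 9, and vehicle at days 3, 6 and 9 against day 0. Red is higher, blue is lower and a dot marks an adjusted p under 0.05. The corticosterone columns hold 25, 27 and 18 dots, and Adamts1 is red where Adamts9 is blue in all 3 of them.

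Per kilobase of the longest coding transcript (GENCODE M21), the scale on which levels of different genes may be set side by side, Timp2 was the highest of the 42 at day 0, at 7.52 ± 0.03 log2 CPM per kb (SD, n = 4). Adamts1 followed at 6.59 ± 0.04, then Adam9 at 6.22 ± 0.07 and Timp3 at 6.16 ± 0.05, of which the last 2 lay within their summed SD of each other. After 3 days of corticosterone Adamts1 stood at 7.57 ± 0.17 and Timp2 at 7.46 ± 0.20 log2 CPM per kb, which do not differ beyond their spread. With vehicle at day 9 the order was Timp2 at 7.24 ± 0.15, Timp3 at 6.46 ± 0.12 and Adamtsl5 at 6.16 ± 0.03, and Adamts1 stood at 5.66 ± 0.10. Mmp24 at -3.57 ± 0.18 and Adamts12 at -3.35 ± 0.13 were the lowest there and lay within their summed SD of each other.

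Adamts1 encodes a secreted protease that cuts the proteoglycans versican and aggrecan. The gene lies at chr16:85793827-85803113 (GRCm38, minus strand). At day 3 it stood at 8.30, 8.37, 8.15 and 8.43 log2 CPM in the 4 vehicle libraries and at 10.0, 9.63, 9.82 and 9.98 with corticosterone. At day 6 the vehicle libraries held 8.35, 8.37, 8.33 and 8.37 and the treated ones 10.03, 9.85, 9.80 and 9.32 log2 CPM. Every treated library was above every vehicle library on both days. The log2 difference was 1.55 ± 0.10 (SE) at day 3, a 2.93-fold higher level (adjusted p = 9.69e-13), and 1.40 ± 0.10 at day 6 (adjusted p = 6.23e-12). At day 9 it had come down to 0.38 ± 0.10 (adjusted p = 0.0049), with treated libraries between 8.27 and 8.39 and vehicle libraries between 7.83 and 8.04 log2 CPM. In vehicle culture Adamts1 itself fell with time, by 0.57 at day 3 and by 0.94 at day 9 on the log2 scale relative to day 0.

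Adamts9, which encodes another versican-cutting protease that acts in the secretory pathway and at the cell surface, did the reverse. Its gene lies at chr6:92772699-92943492 on the minus strand. With vehicle it stood at 1.84, 1.64, 1.77 and 2.02 log2 CPM at day 0 and at 5.22, 5.22, 5.35 and 5.29 at day 9, with 3.43, 3.44, 3.38 and 3.34 at day 3 and 4.30, 4.42, 4.40 and 4.30 at day 6 between them. That climb was a log2 difference of 3.45 ± 0.09 at day 9 against day 0 (adjusted p = 6.93e-21), with no overlap between any of the 4 days. Corticosterone libraries held 2.20, 1.87, 2.36 and 2.27 log2 CPM at day 3, 2.46, 2.36, 2.04 and 2.40 at day 6, and 4.46, 4.46, 4.49 and 4.40 at day 9. All 4 were below all 4 vehicle libraries on each day. The differences were -1.22 ± 0.09 at day 3 (adjusted p = 3.15e-11), -2.04 ± 0.09 at day 6 (adjusted p = 1.73e-15) and -0.82 ± 0.09 at day 9 (adjusted p = 1.87e-07). The macrophage marker Cd68, set beside Adamts9 after its values were seen, had means of 4.83, 5.70 and 6.62 log2 CPM with vehicle and 3.18, 3.52 and 5.55 with corticosterone at days 3, 6 and 9. Csf1r, the other measured macrophage marker, went the other way in vehicle culture. Its mean fell from 1.36 log2 CPM at day 0 to -0.68 at day 3 and -0.79 at day 6. With corticosterone Csf1r was lower than with vehicle at days 3 and 6, at -2.39 and -1.57. At day 9 its mean was -0.25 with corticosterone, above that with vehicle, and this difference was not called. The part of either marker in the Adamts9 values was not tested.

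Adamts4 encodes an aggrecanase and lies at chr1:171250421-171260637. For this gene and others of the 42 that overlap a gene on the opposite strand, the kit marks strand, but whether the counting used it is not given in the sources used here. The gene stood near 1 CPM, at 0.91, 0.72, 0.83 and 0.87 log2 CPM with vehicle at day 3 and at -1.27, -0.78, -1.51 and -0.57 with corticosterone. At day 6 the values were 1.09, 0.64, 0.77 and 0.75 against -0.68, -0.46, -0.92 and -0.24. The groups were apart on both days. The differences were -1.87 ± 0.21 (adjusted p = 3.86e-08) and -1.38 ± 0.21 (adjusted p = 4.28e-06), and by day 9 the difference was -0.15 ± 0.21 (adjusted p = 0.635). Adamts5, the other aggrecanase and the neighbour of Adamts1 on chromosome 16, 53059 bases away with 1 annotated gene between them, had 5.53 to 5.60 log2 CPM with corticosterone and 6.07 to 6.24 with vehicle at day 3. Its difference was -0.61 ± 0.04 at day 3 and -0.41 ± 0.04 at day 6, and 0.27 ± 0.04 at day 9 (adjusted p = 1.94e-05), where the treated libraries all stood above the vehicle ones.

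**Figure D2:**
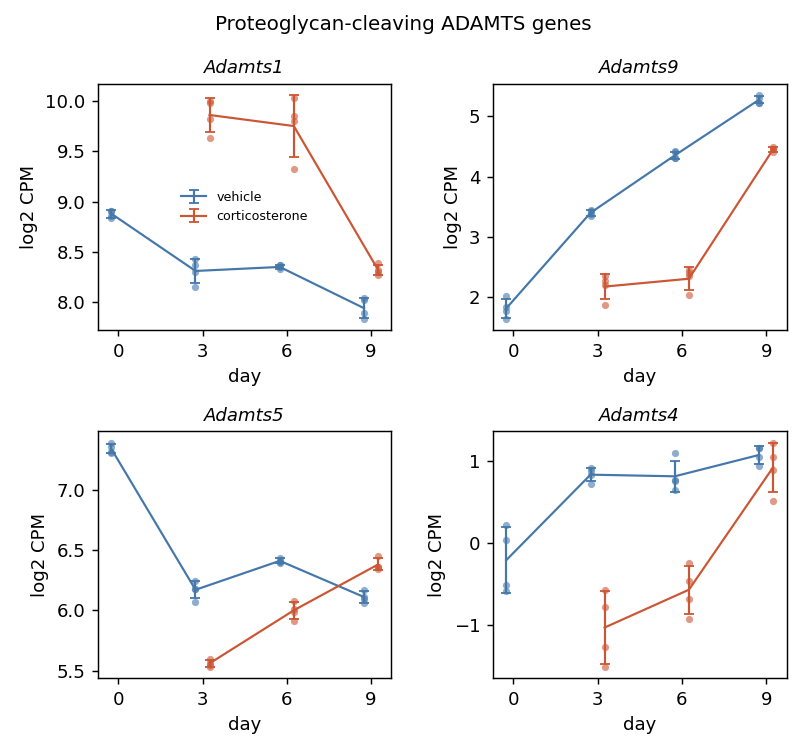
Log2 CPM (vertical axis) by day (horizontal axis) of 4 genes for proteoglycan-cutting enzymes. Points are libraries, lines join group means, bars are SD (n = 4), blue is vehicle, including day 0 before treatment, and orange-red is corticosterone. Adamts1 is above vehicle on each day, by 1.55 at day 3 and 0.38 at day 9, Adamts9 is below it, and Adamts5 crosses from -0.61 at day 3 to 0.27 at day 9.

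Adamts2 and Adamts14 encode enzymes that remove the amino-terminal propeptide of fibrillar procollagens, and they moved apart. Adamts2 was higher with corticosterone by 0.28 ± 0.06 at day 3, 0.83 ± 0.06 at day 6 (adjusted p = 2.84e-11) and 0.46 ± 0.06 at day 9, without overlap on any of the 3 days. Adamts14, at chr10:61197112-61273438, stood at 5.23, 5.28, 5.15 and 5.22 log2 CPM with vehicle and at 4.33, 4.02, 4.17 and 4.34 with corticosterone at day 3. All treated libraries were lower, with a difference of -1.0 ± 0.07 (adjusted p = 1.48e-11), and it was -0.76 ± 0.07 at day 6 (adjusted p = 2.53e-09). At day 9 the groups overlapped, with a difference of 0.12 ± 0.07 (adjusted p = 0.231).

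Adamts7 and Adamts12 encode the COMP-cutting enzymes of the family and were moved in opposite directions too. Adamts7, at chr9:90163069-90208071 and overlapping Tbc1d2b on the opposite strand, held 2.30, 2.87, 2.68 and 2.31 log2 CPM with vehicle and 1.32, 1.05, 1.38 and 1.03 with corticosterone at day 3. At day 6 it held 2.49, 1.82, 1.97 and 2.57 against 0.80, 0.68, 1.35 and 1.01, where lists follow replicate order. Neither day showed overlap. The differences were -1.34 ± 0.21 (adjusted p = 5.96e-06) and -1.25 ± 0.21 (adjusted p = 1.49e-05). At day 9 the difference was -0.46 ± 0.21 (adjusted p = 0.0990), and without vehicle day 9 replicate 6 it was -0.64 (adjusted p = 0.0252).

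Adamts12, at chr15:11064790-11349231, did not differ at day 3 beyond the spread, at -0.03 ± 0.23 (adjusted p = 0.936). At day 6 vehicle libraries held 0.38, 0.52, -0.06 and 0.80 log2 CPM and treated ones 1.68, 1.80, 1.73 and 1.37. At day 9 they held -0.43, -0.25, -0.14 and -0.19 against 0.98, 1.29, 1.05 and 1.07. All treated libraries were higher on both days, by 1.24 ± 0.23 (adjusted p = 5.29e-05) and 1.35 ± 0.23 (adjusted p = 5.32e-05). Of the enzymes that bind fibrillin microfibrils, Adamts6 was higher at day 6, by 0.36 ± 0.11 (adjusted p = 0.00668). Its day 9 difference of 0.25 ± 0.11 (adjusted p = 0.0786) was called without corticosterone day 9 replicate 4 (0.31, adjusted p = 0.0480). Another such gene, Adamts10, was higher at day 3, by 0.29 ± 0.07 (adjusted p = 0.00226).

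**Figure D3:**
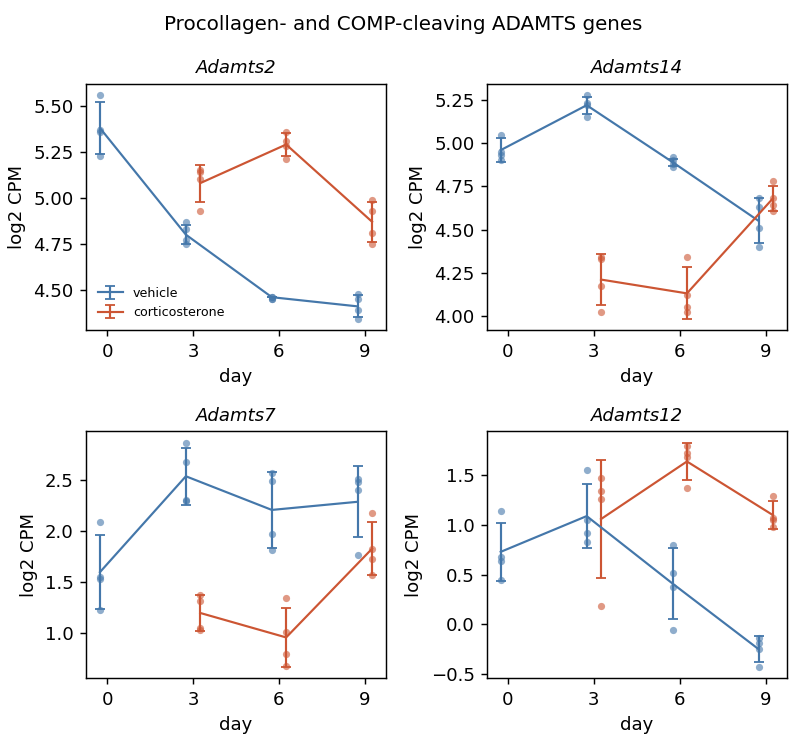
Log2 CPM (vertical axis) by day (horizontal axis) of 2 genes for procollagen-processing and 2 genes for COMP-cutting enzymes, with points for libraries, lines for group means and bars for SD (n = 4), vehicle in blue and corticosterone in orange-red. Within each pair 1 gene lies above vehicle at day 6, Adamts2 by 0.83 and Adamts12 by 1.24, and the other below it, Adamts14 at -0.76 and Adamts7 at -1.25.

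Among the ADAMTS-like genes, whose products have no protease domain, Adamtsl2 was higher and Adamtsl3 lower. Adamtsl2, whose product binds the latent TGF-beta binding protein of microfibrils, lies at chr2:27079379-27108981. It held 1.44, 2.03, 2.19 and 1.72 log2 CPM with vehicle and 3.38, 4.40, 3.69 and 3.39 with corticosterone at day 3. The groups were apart, with a log2 difference of 1.87 ± 0.36 (adjusted p = 0.000106), a 3.66-fold higher level. At days 6 and 9 the groups overlapped, at 0.29 ± 0.36 (adjusted p = 0.537) and -0.50 ± 0.36 (adjusted p = 0.329).

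Adamtsl3, at chr7:82335694-82614450, was the largest fall at day 6. Vehicle libraries held 1.80, 1.15, 1.64 and 0.57 log2 CPM there and treated libraries -0.84, -2.11, -0.48 and -1.26, with no overlap and a difference of -2.47 ± 0.48 (adjusted p = 0.000118). At day 3 the groups overlapped, and the difference of -1.36 ± 0.48 (adjusted p = 0.0214) was no longer called without vehicle day 3 replicate 4 (-1.04, adjusted p = 0.0943), corticosterone day 3 replicate 4 (-0.92, adjusted p = 0.111) or corticosterone day 3 replicate 6 (-1.11, adjusted p = 0.0759), or with log2(CPM + 1) (-0.52, adjusted p = 0.0695), log2(CPM + 5) (-0.16, adjusted p = 0.147) or only the groups compared (adjusted p = 0.108). At such low levels a fold depends on how low counts were put on the log scale, which is not given in the sources used here. In the model of all groups Adamtsl4 and Adamtsl5 were called on no day, with differences between -0.18 and 0.09. At day 9 Adamtsl5 was called when only the groups compared were fitted (-0.11, adjusted p = 0.0412), and Adamtsl4 with log2(CPM + 5) (-0.17, adjusted p = 0.0466), without vehicle day 9 replicate 6 (-0.25, adjusted p = 0.00651) or corticosterone day 9 replicate 3 (-0.20, adjusted p = 0.0468).

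Of the 5 lysyl oxidase genes, 3 were lower and 0 higher at days 3 and 6, and 3 were lower and 1 higher at day 9, where 25.6%, 24.3% and 14.4% of all genes were lower on the successive days. No test set this family apart from other genes. Lox encodes the founding enzyme and lies on chromosome 18 at 52516067 to 52529867. In vehicle culture it stood at 6.16, 6.21, 6.27 and 6.33 log2 CPM at day 0, dropped to 4.68, 4.67, 4.79 and 4.58 at day 3, and then reached 5.78, 5.82, 6.00 and 5.95 at day 6 and 7.09, 7.08, 7.25 and 7.10 at day 9. None of these 4 days overlapped. With corticosterone it held 4.68, 4.54, 4.85 and 4.73 at day 3, 5.30, 5.26, 5.59 and 5.04 at day 6, and 5.34, 5.33, 5.61 and 5.35 at day 9. The groups overlapped at day 3, at 0.02 ± 0.09 (adjusted p = 0.863), and were apart at days 6 and 9, at -0.59 ± 0.09 (adjusted p = 3.45e-06) and -1.72 ± 0.09 (adjusted p = 1.56e-13). At day 9, 6 days after the hormone was removed, the treated level was 0.303 times that of vehicle.

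Loxl2, which encodes a secreted lysyl oxidase of basement membrane collagen, lies at chr14:69609068-69695834. At day 3 it held 6.71, 6.82, 6.78 and 6.90 log2 CPM with vehicle and 6.35, 6.24, 6.41 and 6.39 with corticosterone. Later vehicle libraries held 7.33, 7.43, 7.46 and 7.60 log2 CPM at day 6 and 7.85, 7.80, 7.91 and 7.62 at day 9. Treated libraries held 6.24, 6.33, 6.20 and 6.33 at day 6 and 6.70, 6.68, 6.77 and 6.52 at day 9. The difference was -0.46 ± 0.06 at day 3 (adjusted p = 1.55e-06), -1.18 ± 0.06 at day 6 (adjusted p = 4.96e-14) and -1.13 ± 0.06 at day 9 (adjusted p = 1.04e-12), without overlap on any of these days. Loxl4 was lower without overlap on all 3 days, at -0.64 ± 0.09, -0.69 ± 0.09 and -0.42 ± 0.09 (adjusted p = 0.000715 at day 9). Loxl1, whose product acts on elastic fibres, was at -0.43 ± 0.09 at day 3 (adjusted p = 0.000316) and 0.43 ± 0.09 at day 9 (adjusted p = 0.000787). Loxl3 was called on no day, with differences from -0.23 to 0.08.

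**Figure D4:**
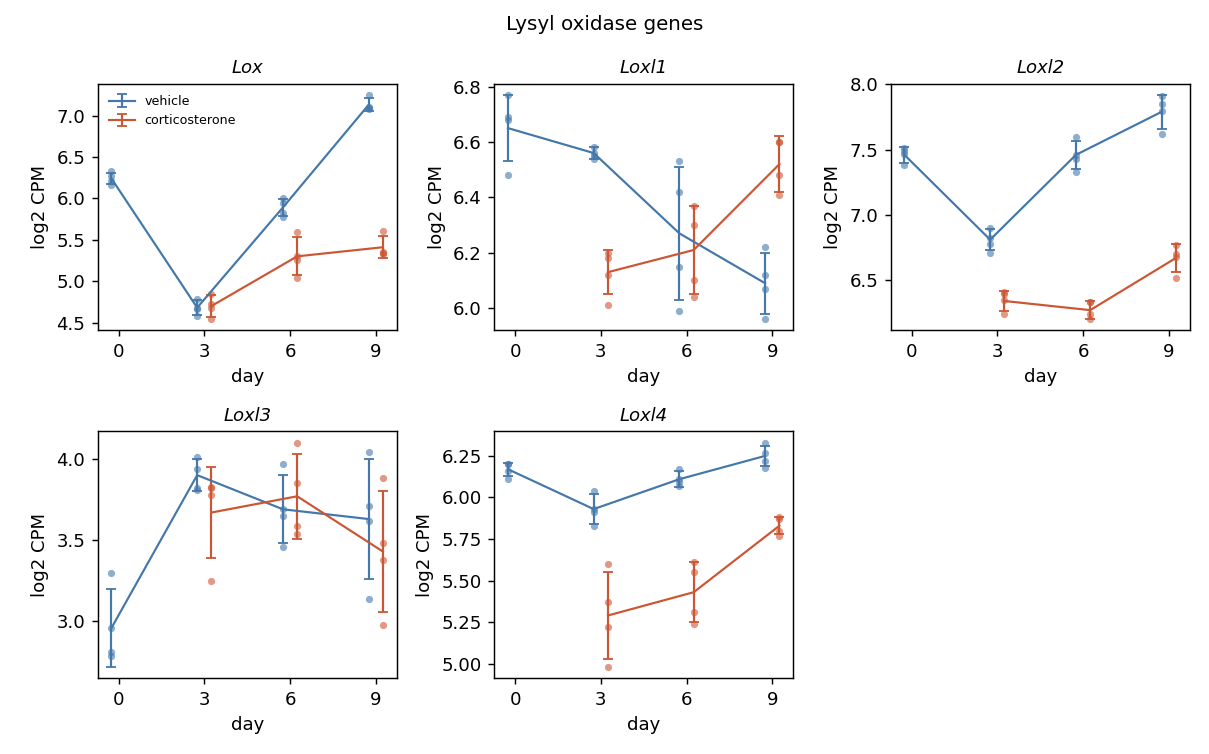
Log2 CPM (vertical axis) by day (horizontal axis) of the 5 lysyl oxidase genes, with points for libraries, lines for group means and bars for SD (n = 4), vehicle in blue and corticosterone in orange-red. The Lox groups overlap at day 3 and are 1.72 apart at day 9, Loxl2 and Loxl4 lie below vehicle on all 3 days, and Loxl1 changes side.

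Each of the 3 measured inhibitors followed a course of its own. Timp3, whose product is bound to the matrix and also inhibits ADAM17 and the aggrecanases, lies at chr10:86300372-86349506 and overlaps Syn3 on the opposite strand. It held 8.24 to 8.43 log2 CPM with vehicle and 7.49 to 7.72 with corticosterone at day 3, a difference of -0.69 ± 0.05 (adjusted p = 3.10e-11). That had narrowed to -0.24 ± 0.05 at day 6 (adjusted p = 0.000401) and -0.02 ± 0.05 at day 9 (adjusted p = 0.803). Timp1, which overlaps Syn1 on the opposite strand, was lower on each day, at -0.40 ± 0.10, -0.49 ± 0.10 and -0.32 ± 0.10 (adjusted p = 0.00164, 0.000227 and 0.0170). The day 3 call was lost when only the groups compared were fitted (adjusted p = 0.0701). In corticosterone day 3 replicate 4 Timp1 stood at 4.29 log2 CPM, above all vehicle libraries, while the others held 3.55 to 3.64, and without that library the difference was -0.58 (adjusted p = 1.6e-09).

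Timp2, whose product both inhibits MMP2 and helps MMP14 to activate it, was at -0.04 ± 0.07 at day 3, 0.20 ± 0.07 at day 6 (adjusted p = 0.0228) and 0.32 ± 0.07 at day 9 (adjusted p = 0.00112). The day 6 call was lost without vehicle day 6 replicate 5 or 6 or corticosterone day 6 replicate 1 or 3, each leaving 0.18 (adjusted p = 0.0546 to 0.0605), with quantile normalization (0.17, adjusted p = 0.101), and with the replicate number as a block (0.17, adjusted p = 0.0691). Timp2 lay between 8.91 and 9.55 log2 CPM over all 28 libraries.

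Among the membrane-type metalloproteinases, Mmp14, the main activator of proMMP2 and a collagenase of the cell surface, was lower at days 3 and 6, at -0.27 ± 0.06 (adjusted p = 0.000701) and -0.45 ± 0.06 (adjusted p = 9.45e-07), with no overlap. By day 9 it was at 0.04 ± 0.06 (adjusted p = 0.686). Mmp15, another membrane-type enzyme, was higher on all 3 days, at 0.72 ± 0.23, 0.83 ± 0.23 and 0.95 ± 0.23 (adjusted p = 0.0125, 0.00475 and 0.00284), and its day 3 call was lost without vehicle day 3 replicate 6 (0.52, adjusted p = 0.0738). Mmp16 was at 0.10 ± 0.17 at day 3 and higher at day 6, by 0.54 ± 0.17 (adjusted p = 0.00862). Its day 9 difference of 0.45 ± 0.17 (adjusted p = 0.0422) was lost when vehicle day 9 replicate 3, 4 or 6 or corticosterone day 9 replicate 3, 5 or 6 was left out, with 0.38 to 0.46 then (adjusted p = 0.0729 to 0.127), and with log2(CPM + 5) (0.22, adjusted p = 0.0720).

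Mmp24, a membrane-type enzyme best known from the nervous system, lies at chr2:155775342-155818366. Day 0 libraries held 0.28, 0.75, 1.28 and 1.54 log2 CPM, and vehicle libraries 0.29, -0.65, -0.78 and -1.68 at day 3, -0.27, -1.47, -1.25 and -1.03 at day 6 and -1.34, -1.71, -1.50 and -1.30 at day 9. Corticosterone libraries held 0.36, 0.55, 0.08 and 0.77 at day 3, -0.08, 0.72, 0.13 and -0.02 at day 6, and -0.20, -0.91, -0.51 and 0.34 at day 9. The treated libraries thus kept values above all vehicle ones at days 6 and 9, and overlapped them at day 3. The differences were 1.15 ± 0.35, 1.19 ± 0.35 and 1.14 ± 0.35 (adjusted p = 0.00764, 0.00577 and 0.0141). The day 3 call was lost without vehicle day 3 replicate 6 (0.82, adjusted p = 0.0507) and the day 9 call without corticosterone day 9 replicate 6 (0.92, adjusted p = 0.0673) or with log2(CPM + 1) (0.42, adjusted p = 0.0546).

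Mmp23, another membrane-bound enzyme near 1 CPM, was called on no day, and its day 3 difference of 0.72 ± 0.31 (adjusted p = 0.0519) was called without vehicle day 3 replicate 4 (0.94, adjusted p = 0.0173) or corticosterone day 3 replicate 6 (0.95, adjusted p = 0.0144). It was also called with log2(CPM + 1) (0.40, adjusted p = 0.0194), log2(CPM + 5) (0.15, adjusted p = 0.0130), median centring (adjusted p = 0.0471), no intensity trend (adjusted p = 0.0467) and robust moderation (adjusted p = 0.0497), so its call depends on the setting. Of the secreted enzymes, Mmp19, which cuts basement membrane proteins, was lower on all 3 days, at -0.49 ± 0.08, -0.90 ± 0.08 (adjusted p = 1e-09) and -0.29 ± 0.08 (adjusted p = 0.00905). Mmp28, known as epilysin, was higher by 0.49 ± 0.10 at day 3 and 0.81 ± 0.10 at day 6 (adjusted p = 1.23e-07) and was at 0.05 ± 0.10 at day 9. Mmp2, a gelatinase, was low, between -1.41 and 0.81 log2 CPM over all libraries, and was lower with corticosterone at day 6, at -0.93 ± 0.25 (adjusted p = 0.00334). At day 3 it was at -0.54 ± 0.25 (adjusted p = 0.0786), and without corticosterone day 3 replicate 4 at -0.72 (adjusted p = 0.0215). Mmp11, or stromelysin 3, overlaps Chchd10 on the opposite strand and was called higher at day 3 only, by 0.29 ± 0.08 (adjusted p = 0.00621), and not when only the groups compared were fitted (adjusted p = 0.0554). Mmp12, the macrophage elastase, was at -0.03 ± 0.10, 0.01 ± 0.10 and -0.19 ± 0.10 and was called on no day. Of the macrophage markers named above, Csf1r and Cd68 were lower with corticosterone at days 3 and 6, and only Cd68 at day 9.

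**Figure D5:**
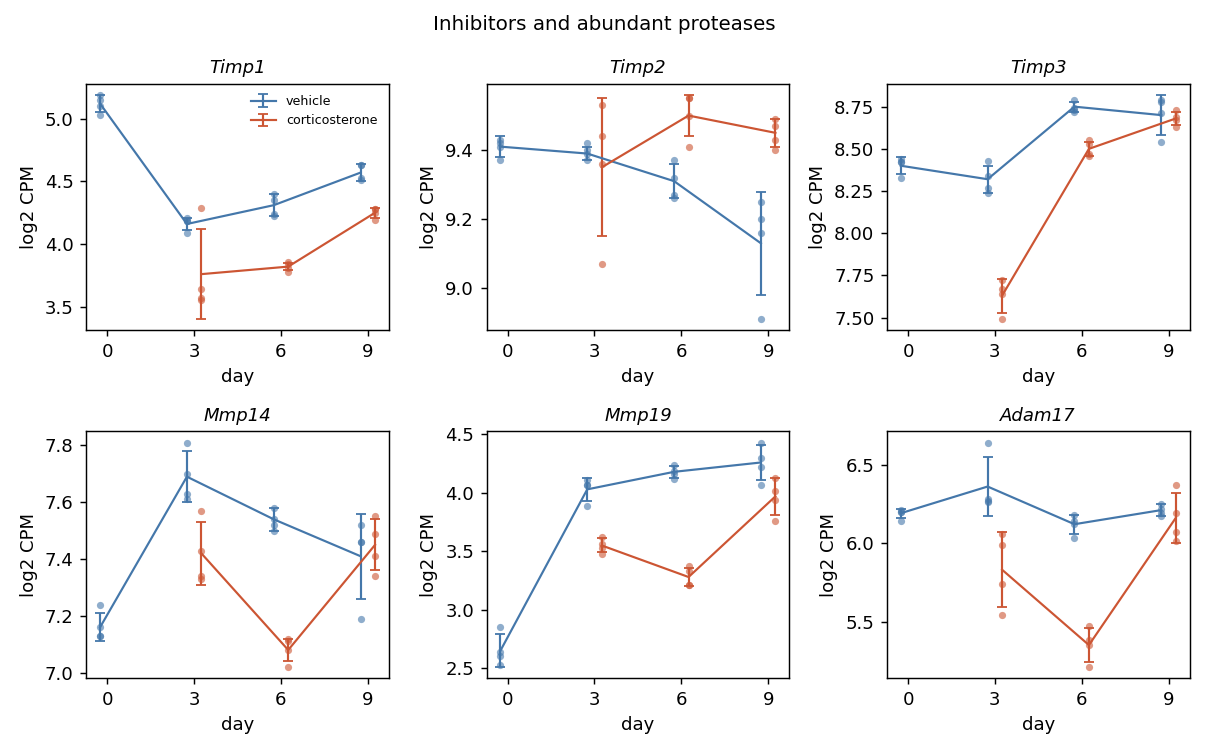
Log2 CPM (vertical axis) by day (horizontal axis) of the 3 Timp genes and of Mmp14, Mmp19 and Adam17, with points for libraries, lines for group means and bars for SD (n = 4), vehicle in blue and corticosterone in orange-red. Timp3 starts 0.69 below vehicle at day 3 and meets it at day 9, Mmp14 and Adam17 are lowest with corticosterone at day 6, and 1 treated Timp1 library at day 3 lies above the vehicle libraries.

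Adam17 and Adam10, the main sheddases of the cell surface, were both lower. Adam17, which releases TNF and ligands of the EGF receptor, held 5.54 to 6.06 log2 CPM with corticosterone and 6.26 to 6.64 with vehicle at day 3, and 5.21 to 5.47 against 6.03 to 6.18 at day 6. The differences were -0.53 ± 0.09 (adjusted p = 4.24e-05) and -0.77 ± 0.09 (adjusted p = 1.45e-07), and -0.05 ± 0.09 at day 9 (adjusted p = 0.765). Adam10, the protease that cuts Notch receptors and cadherins, was at -0.29 ± 0.05 at day 3 (adjusted p = 7.62e-05), -0.17 ± 0.05 at day 6 (adjusted p = 0.0102) and -0.01 ± 0.05 at day 9. Adam1a, a member of the fertilin alpha group known from sperm, overlaps Mapkapk5 on the same strand. It was higher by 0.47 ± 0.07 at day 3 and 0.82 ± 0.07 at day 6 (adjusted p = 6.26e-10) and at -0.12 ± 0.07 at day 9 (adjusted p = 0.254).

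Adam11 and Adam22 encode ADAM proteins without a working active site. Adam11, at chr11:102761439-102780262, held 0.42, 0.78, 1.47 and 1.34 log2 CPM with vehicle and 2.66, 1.34, 2.21 and 2.17 with corticosterone at day 3. The groups overlapped, since replicate 4 of the treated group lay below a vehicle library, and the difference was 1.09 ± 0.31 (adjusted p = 0.0045). It was 0.02 ± 0.31 at day 6 and 0.70 ± 0.31 at day 9 (adjusted p = 0.0904). Adam22 was higher at day 6, by 0.99 ± 0.27 (adjusted p = 0.00336). Its day 9 difference of 0.71 ± 0.27 (adjusted p = 0.0484) was lost without vehicle day 9 replicate 3, 4 or 5 or without corticosterone day 9 replicate 3, 4 or 5, with 0.58 to 0.78 then (adjusted p = 0.0547 to 0.152), with log2(CPM + 1) (0.50, adjusted p = 0.0582) or log2(CPM + 5) (0.23, adjusted p = 0.0790), and without the intensity trend (adjusted p = 0.0531).

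In the model of all groups Adam9 and Adam33 were called at day 9 only. Adam9, an active surface protease, was at 0.18 ± 0.06 (adjusted p = 0.0225), and the call was lost without vehicle day 9 replicate 6 (0.13, adjusted p = 0.105) or without corticosterone day 9 replicate 3, 4 or 5 (0.16 to 0.17, adjusted p = 0.0508 to 0.0616). Adam33, an active protease known from airway mesenchyme, was at -0.39 ± 0.15 (adjusted p = 0.0456), and leaving out any of the 8 libraries of day 9 ended the call (-0.37 to -0.42, adjusted p = 0.0605 to 0.0999). Its differences at days 3 and 6 were -0.31 ± 0.15 and -0.30 ± 0.15 (adjusted p = 0.0831 and 0.0901), and the day 3 value was called without vehicle day 3 replicate 3 (-0.44, adjusted p = 0.0157). Day 3 was also called with log2(CPM + 1) (-0.28, adjusted p = 0.0383), log2(CPM + 5) (-0.20, adjusted p = 0.0181) and quantile normalization (-0.35, adjusted p = 0.0384). Day 6 was called with log2(CPM + 1) (-0.27, adjusted p = 0.0436), log2(CPM + 5) (-0.19, adjusted p = 0.0232) and only the groups compared (adjusted p = 0.0308), so which days are called for Adam33 depends on the setting. The ADAM genes called on no day were Adam8, Adam12 and Adam15, with differences between -0.40 and 0.61. Adam15 at day 9, at -0.29 ± 0.12, was called without vehicle day 9 replicate 6 (-0.37, adjusted p = 0.0332) or corticosterone day 9 replicate 6 (-0.36, adjusted p = 0.0390), and Adam8 at day 6 without vehicle day 6 replicate 4 (-0.67, adjusted p = 0.0493).

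Most of these genes also differed from day 0 in vehicle culture, where 3 comparisons share the day 0 libraries. Because day 0 preceded the ethanol vehicle, time in culture, ethanol and medium replacement cannot be told apart here. The median size of the log2 difference was 0.55 at day 3, 0.60 at day 6 and 0.68 at day 9, beside 0.41, 0.40 and 0.41 over all genes. Against day 0, 29 of the 42 were called at day 3 (17 higher, 12 lower), where 69.2% of all genes were (36.5% higher, 32.7% lower). At day 6 it was 31 (19 and 12) beside 70.1% (36.4% and 33.7%), and at day 9 it was 34 (20 and 14) beside 70.4% (35.9% and 34.6%). At day 3 the share of these genes, 69%, was close to that of all genes. Mmp19 was higher by 1.38 ± 0.08, 1.52 ± 0.08 and 1.60 ± 0.08 at days 3, 6 and 9 against day 0, and Mmp15 by 1.82 ± 0.23, 1.51 ± 0.23 and 1.16 ± 0.23. Adamts5 was at -1.17 ± 0.04, -0.93 ± 0.04 and -1.23 ± 0.04.

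Adam33, at chr2:131050591-131063814, was the largest rise at days 3 and 6. It went from 0.70, 0.04, -0.04 and 0.68 log2 CPM at day 0 to 2.89, 3.27, 3.39 and 3.58 at day 3 and 3.20, 3.42, 3.35 and 3.19 at day 6, by 2.94 ± 0.15 on both days (adjusted p = 1.39e-15 and 1.65e-15). At day 9 the largest rise was that of Adamts9, given above. Adam12, a surface protease of mesenchymal cells at chr7:133883199-134232146, was the largest fall at day 3, from 2.17, 1.60, 1.90 and 1.73 to -0.48, -0.66, 0.23 and 0.59 log2 CPM. Every day 3 library lay below every day 0 library, with a difference of -1.93 ± 0.24 (adjusted p = 8.83e-08), and at days 6 and 9 the difference was -0.38 ± 0.24 and -0.20 ± 0.24. Corticosterone libraries showed the same low Adam12 at day 3, at -0.47, 0.01, 0.14 and 0.05, and at day 9 they held 2.16 to 2.39 against 1.46 to 1.82 with vehicle, a difference of 0.61 ± 0.24 (adjusted p = 0.0598) that was called with log2(CPM + 1) (0.48, adjusted p = 0.0169), log2(CPM + 5) (0.27, adjusted p = 0.00391), quantile normalization (0.66, adjusted p = 0.0386) and only the groups compared (adjusted p = 0.00211). Mmp24 was the largest fall at days 6 and 9, at -1.97 ± 0.35 (adjusted p = 1.6e-05) and -2.43 ± 0.35 (adjusted p = 7.4e-07) from the values given above.

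Adamtsl2 rose over culture by 2.53 ± 0.36 at day 3 and 2.77 ± 0.36 at day 9, from -0.46, -0.39, -0.17 and -1.73 log2 CPM at day 0. Mmp12 rose by 0.96 ± 0.10 and 1.21 ± 0.10 at the same days, and Adamtsl5 by 0.98 ± 0.06 and 0.87 ± 0.06. Timp1 fell at all 3 days, at -0.95 ± 0.10, -0.81 ± 0.10 and -0.54 ± 0.10. With quantile normalization the signs of Timp2, Timp3 and Adam9 at day 3 against day 0 turned, from -0.02 to 0.37, from -0.08 to 0.21 and from -0.25 to 0.03. The direction of Adam9 at day 3, called lower in the deposited scaling (adjusted p = 0.000568), therefore depends on the scaling. Timp2 and Timp3, not called there, became called higher with quantile normalization (adjusted p = 0.000464 and 0.00113), as did Adam10 (0.24, adjusted p = 0.000162). The Mmp23 rise, called at all 3 days in the deposited scaling, was then called at none (adjusted p = 0.0716, 0.165 and 0.294).

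Whether the response to the hormone itself changed between days was tested as the difference of the corticosterone effects. From day 3 to day 6, 10 of the 42 effects changed, 23.8% beside 9.11% of all genes (4.21% higher, 4.9% lower). The effect was higher at day 6 for Timp3, Adam1a, Adamts12, Adamts2 and Adamts5 and lower for Adamts9, Loxl2, Lox, Mmp19 and Adamts10. The count of 5 higher fell to 3 without vehicle day 3 replicate 6, vehicle day 6 replicate 3 or 6 or corticosterone day 6 replicate 1, and the count of 5 lower fell to 3 without corticosterone day 6 replicate 6. From day 3 to day 9, 23 effects changed (13 higher, 10 lower), 54.8% beside 38.3% of all genes (19.8% higher, 18.5% lower). From day 6 to day 9 it was 16 (11 and 5), 38.1% beside 30.9% (16% and 14.9%). These comparisons share libraries.

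The Lox effect at day 9 was below that at day 3, a log2 difference of -1.74 ± 0.13 (adjusted p = 4.34e-11). Loxl2 had reached its low by day 6, with -0.72 ± 0.09 from day 3 to day 6 (adjusted p = 4.89e-06) and 0.06 ± 0.09 from day 6 to day 9 (adjusted p = 0.690). For Adamts1 the change between days 3 and 6 was -0.15 ± 0.14 (adjusted p = 0.567), and shrank from day 6 to day 9, by -1.02 ± 0.14 (adjusted p = 2.58e-06). Adamts9 went further down by day 6, at -0.82 ± 0.13 (adjusted p = 0.000127), and came back by day 9, at 1.22 ± 0.13 (adjusted p = 7.09e-08). Adamts4, Adamts14 and Adamts5 came back from day 6 to day 9 by 1.23 ± 0.30, 0.88 ± 0.10 and 0.68 ± 0.06. The Adamtsl2 effect was lower at day 9 than at day 3, at -2.37 ± 0.51 (adjusted p = 0.000562). Whether its change from day 3 to day 6 was called depends on the setting, as given below.

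Other genes of the same system were counted in 5 lists, to be read beside the shares of all genes called, 23.3% higher and 25.6% lower at day 3, 22.9% and 24.3% at day 6, and 14.1% and 14.4% at day 9. Of the plasminogen system, 12 of 17 genes were measured, with 1 higher and 5 lower at day 3, 1 and 4 at day 6 and 3 and 5 at day 9 (median -0.15, 0.09 and 0.03, all genes -0.01, 0 and 0). Plat, which encodes a plasminogen activator, was lower on all days, at -0.87 ± 0.05, -0.69 ± 0.05 and -0.40 ± 0.05. Of the activators, partners and other inhibitors of metalloproteinases, 17 of 23 were measured, with 4 higher and 6 lower, 5 and 6, and 3 and 4 (median -0.05, -0.02 and 0.04). Tspan5, a tetraspanin that escorts ADAM10, was at -0.59 ± 0.05 at days 3 and 6, and Rhbdf2, which escorts ADAM17, at -0.53 ± 0.09 at day 3. Cd44, which docks proteases at the surface, was at -0.52 ± 0.07 and -0.75 ± 0.07 on those days.

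Enzymes that process or cross-link collagen by other means had 16 of 20 measured, with 2 higher and 9 lower at day 3, 1 and 10 at day 6 and 4 and 8 at day 9 (median -0.19, -0.29 and -0.19). The prolyl hydroxylase gene P4ha1 was at -1.81 ± 0.08 at day 6 and -1.37 ± 0.08 at day 9, and the lysyl hydroxylase gene Plod2 at -1.23 ± 0.09 and -1.37 ± 0.09. P4ha2 was higher at day 3, by 0.55 ± 0.07, and lower at day 9, at -1.24 ± 0.07. Of other matrix and pericellular proteases 10 of 17 were measured, with 4 higher and 4 lower at days 3 and 6 and 2 and 3 at day 9 (median 0.07, 0.14 and -0.07). Pappa, which cuts IGF-binding proteins, was higher by 2.79 ± 0.19, 3.66 ± 0.19 and 1.54 ± 0.19, and the heparanase gene Hpse was at -1.42 ± 0.07 at day 6. Of the substrates shed by ADAM proteases 21 of 23 were measured, with 2 higher and 11 lower, 5 and 8, and 3 and 8 (median -0.34, -0.08 and -0.12). Vcam1 was at -3.09 ± 0.15 and Hbegf at -0.65 ± 0.06 at day 3.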

How the data were processed

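Polyadenylated RNA of 28 DC2 libraries was analysed from 1 table of normalized log2 CPM deposited by the authors, with no raw counts. The tools listed in the submitters' processing notes are kallisto, without a version, limma 3.54.0 and edgeR 3.40.1, and the build is mm10; their roles are not stated. The annotation, prior count and strand setting are not given in the sources used here. The lowest value, -4.15, is a floor that 7 to 44 values per library share, and an entry without a symbol (0.0267 to 0.0698% of CPM) was left out. Members and gene lists were chosen with earlier results of these data known. Genes above 0 log2 CPM in at least 4 libraries were tested, which removed 0 of 13128 genes, and all 42 members passed, with a lowest value of -2.45.

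A model with 1 mean per group was fitted in R 4.3.3 by limma 3.58.1, with moderation that follows an intensity trend and 21 residual degrees of freedom, and genes were called at a Benjamini-Hochberg adjusted p under 0.05 within each of 9 contrasts. Values are log2 fold changes ± SE, with n = 4 libraries per group. On data simulated for corticosterone against vehicle at day 3 with 13128 genes, 32, 78, 96 and 100% of 50 genes each were found again at planted changes of 0.25, 0.5, 1 and 2 (log2), and 7 of 12928 unchanged genes were called. The simulation used independent normal noise and far fewer changed genes than the 49% called in the data at day 3, so the rates there may differ. No library was a copy of another (smallest root mean square difference 0.282). Values in every library are given for members called at a log2 difference of 1 or more with a mean of at least 1 log2 CPM under corticosterone, and for the largest called rise and fall of each contrast. Folds are given for every Timp, lysyl oxidase and Mmp gene and for other members called with corticosterone. From each further list, members with the smallest p, at most 3 a contrast, are named. Some list members are not reported here. The alternatives were a filter at 2 log2 CPM (11460 genes), no filter, log2(CPM + 1), log2(CPM + 5), median centring, quantile normalization, robust moderation, no intensity trend, a fit of only the groups compared, the replicate number as a block, and leaving out each library. Coordinates and lengths are from GENCODE M21 (GRCm38), joined by symbol for all 42 members. Whether replicate numbers pair the libraries was checked from the correlation of same-numbered libraries' deviations from their group means. At day 6 the 3 pairs of vehicle and corticosterone libraries had 0.156, 0.126 and 0.11, and the values with the block stand beside the day 6 result whose call they change. The pairing comes from the numbers alone, since the labels name no shared culture or day.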

Additional observations from a re-analysis of the deposited data

Results flagged for a closer look

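Of 98 groups of 4 libraries checked for the 14 genes with values in every library, 4 held a library far from the others by Dixon's criterion, where chance alone marks about 1 in 20 groups. Adamts7 was 1.77 log2 CPM in vehicle day 9 replicate 6 against 2.41 to 2.51 in the others. Adamts12 was 0.18 in corticosterone day 3 replicate 4 against 1.26 to 1.47, and without that library its day 3 difference was 0.27 (adjusted p = 0.252). Lox stood high in replicate 5 of both day 9 groups, at 7.25 against 7.08 to 7.10 with vehicle and at 5.61 against 5.33 to 5.35 with corticosterone.

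The corticosterone effect differed between days, by limma's test of the difference itself, in 19 of 42 values for these genes. The genes were named for large effects, some of them in these same differences, so this count is a description. Of all genes 9.11% were called from day 3 to day 6, 38.3% from day 3 to day 9 and 30.9% from day 6 to day 9. From day 3 to day 6 it changed by -0.82 for Adamts9, 1.26 for Adamts12, -0.61 for Lox and -0.72 for Loxl2. From day 3 to day 9 it changed by -1.17 for Adamts1, 1.71 for Adamts4, 0.40 for Adamts9, 1.13 for Adamts14, 0.88 for Adamts7, 1.37 for Adamts12, -2.37 for Adamtsl2, -1.74 for Lox and -0.67 for Loxl2. From day 6 to day 9 it changed by -1.02 for Adamts1, 1.23 for Adamts4, 1.22 for Adamts9, 0.88 for Adamts14, 0.79 for Adamts7 and -1.13 for Lox. The Adamts9 change from day 3 to day 9 was not called with log2(CPM + 1) (0.27, adjusted p = 0.0581) or log2(CPM + 5) (0, adjusted p = 0.973). The Adamts12 change from day 3 to day 6 was not called with only the groups compared (adjusted p = 0.0548). The Adamts7 change from day 3 to day 9 was lost without vehicle day 9 replicate 6 (0.71, adjusted p = 0.0548). Its change from day 6 to day 9 was lost without vehicle day 6 replicate 3 or 6, vehicle day 9 replicate 6, corticosterone day 6 replicate 1, 3 or 6 or corticosterone day 9 replicate 4 or 6, with 0.61 to 0.81 then (adjusted p = 0.0511 to 0.110). The change of -1.58 for Adamtsl2 from day 3 to day 6 (adjusted p = 0.051) was called without vehicle day 3 replicate 5 (-1.69), vehicle day 6 replicate 3 (-1.83) or corticosterone day 3 replicate 1 or 6 (-1.69). The same change was called with the filter at 2 log2 CPM (adjusted p = 0.0474), log2(CPM + 1) (-1.41, adjusted p = 0.0146) and log2(CPM + 5) (-0.98, adjusted p = 0.00384). Quantile normalization (-1.56, adjusted p = 0.0403) and only the groups compared (adjusted p = 0.0482) gave the call too.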

How the results depend on the processing

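Counts of genes called higher or lower stayed within 1.5 times the reported count under the filters, pseudocounts, scalings, moderation settings and replicate block in all 9 comparisons. The exception was the change of the effect from day 3 to day 6, where 3 instead of 5 genes were higher with only the groups compared, and the cause was not tested. Leaving out 1 library at a time gave 8 to 11 higher and 14 to 16 lower at day 3, 10 to 11 and 16 to 17 at day 6, and 8 to 10 and 6 to 9 at day 9. In vehicle culture it gave 17 to 18 and 10 to 12 at day 3, 17 to 19 and 12 to 12 at day 6, and 19 to 21 and 14 to 15 at day 9. For the changes of the effect it gave 3 to 6 and 3 to 6 (day 6 minus day 3), 11 to 14 and 7 to 9 (day 9 minus day 3), and 9 to 11 and 5 to 6 (day 9 minus day 6). The reported 11 higher with corticosterone at day 9 and 10 lower for day 9 minus day 3 lay above all counts with a library left out. The sign turned under quantile normalization for Timp2 (0.37), Timp3 (0.21) and Adam9 (0.03) at vehicle day 3 against day 0, and the cause was not tested. Deviations of same-numbered libraries correlated weakly: 26 of 73 pairs were over 0.1 (-0.134 to 0.26, other pairs -0.394 to 0.338), and 9 of 28 libraries correlated best with their own number. At day 6 all 3 same-numbered pairs were over 0.1, but vehicle replicate 4 with corticosterone replicate 3 was higher, at 0.229. At day 9 the same-numbered pairs of vehicle and corticosterone were at 0.032, 0.167, 0.089 and 0.054. These day 6 and day 9 values were all above 0, while at day 3 the same-numbered pairs were at 0.071, -0.031 and 0.059. Pairing by number is thus neither shown nor excluded by that measure on any of these days, and the main model did not use it. With the replicate block the calls were 25, 26 and 15 with corticosterone, with Timp2 lost at day 6 (0.17, adjusted p = 0.0691) and Adam22 (adjusted p = 0.0585), Adam33 (adjusted p = 0.0549) and Mmp16 (adjusted p = 0.0539) at day 9, and 30, 31 and 34 in vehicle culture, with Mmp11 gained at day 3 (adjusted p = 0.0462). For the change of the effect from day 6 to day 9 it lost Adamts7 (0.77, adjusted p = 0.0702) and gained Adamtsl3 (1.89, adjusted p = 0.0424). With only the groups compared, Timp1, Mmp11 and Adamtsl3 at day 3 were not called (adjusted p = 0.0701, 0.0554 and 0.108), while Adam33 at day 6 (0.0308) and Adam11, Adam12 and Adamtsl5 at day 9 (0.00909, 0.00211 and 0.0412) were. Depth is unknown, so differences of genes near 1 CPM rest on the deposited scale alone.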
